A study of Papio anubis with 8 samples.

Results

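The receptors described here carry a symbol of GPR followed by a number, the placeholder name given to a G protein-coupled receptor before a ligand is agreed on. Of the 37053 genes in the deposited table, 73 had such a symbol, optionally with 1 closing letter, and 71 remained once GPR17 and GPR34 were left out. The choice used the symbol alone and no measured value. A G protein-coupled receptor crosses the membrane with a bundle of helices and, when active, makes a heterotrimeric G protein exchange GDP for GTP. The alpha subunit and the beta-gamma pair then act on enzymes such as adenylyl cyclase, while receptor kinases and arrestins switch the receptor off. Orphan receptors are those without an agreed ligand. Many are most abundant in the brain, and several signal without any ligand. The symbol is older than the biology of some members: some now have an accepted ligand, and a few sit in organelles or have a different membrane fold.

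The tissue was the hippocampus of fetuses of the olive baboon (Papio anubis), taken at 0.9 of gestation, and total RNA was sequenced. Per the design text, adiposity and leptin level differed among the dams. The labels of the 8 libraries differ in their title only and give no maternal group, age, sex or treatment, so no library was set against another as a group and no test between groups was made. Whether each library is a separate fetus is not stated in the labels, and the title of AMB3 ends differently from the other titles with no reason given.

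The summed estimated counts lay between 40404878 (AMB9) and 71648654 (AMB10). Levels are given as CPM (the count per 1000000 of the scaled library), and the spread of a gene is its log2 range: log2 CPM in the highest library minus that in the lowest. Markers of neurons and glia stood in every library, with a summed level of 8 excitatory neuron markers of 3093 to 4666 CPM. The summed level of 8 markers of the dentate gyrus and hippocampal fields was 842 CPM in AMB8 and 814 in AMB10, above the 230 to 448 CPM of the other libraries. FIBCD1 alone gave 400 CPM of that sum in AMB8 and 367 in AMB10. PROX1, NRP1, HTR1A, C1QL2 and BCL11B were also highest in these 2 libraries. PDZD2 was instead lowest in AMB8 (42.5 CPM) and AMB10 (70.6 CPM), and DSP was highest in AMB7 (6.01 CPM). Over 9 markers of the striatum, a neighbouring forebrain region, the sum was lowest in AMB8 (143 CPM) and AMB10 (164 CPM) and highest in AMB7 (377 CPM). FOXP2, RARB and PENK were lowest in AMB8 and AMB10 and highest in AMB7. TAC1 was lowest in AMB8 (25.6 CPM) but highest in AMB9 (98.9 CPM). The dopamine receptor gene DRD1 was highest in AMB10 (33.1 CPM) and AMB8 (28.7 CPM), and DRD2 was highest in AMB5 (16.6 CPM), then AMB8 (11.7 CPM). Blood leukocyte markers summed to 5.60 to 8.74 CPM and choroid plexus markers to 7.45 to 29.4 CPM. These RNA levels are per tissue piece, and fewer cells of a type cannot be told apart from less RNA per cell. CPM values of different receptors are not ranked against each other, since reads per gene also follow transcript length, which is not used here.

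Of the 71 receptors, 45 passed a filter that asked for about 10 counts in every library, and 26 did not. At least 1 count was present in every library for 56 receptors, and 3, among them GPR33 and GPR141, had none in any library. The log2 range was at least 1 in 24 of the 45 receptors that passed (53.3%), against 36.1% of all 16874 genes that passed. It was at least 2 in 12 of the 45 (26.7%), against 1518 of the 16874 genes. The median log2 range was 1.18 over these receptors and 0.77 over all genes, while the median level was 13.0 CPM over these receptors and 19.4 CPM over all genes. The counts were repeated by level. Among receptors with a median of at least 5 CPM, 12 of 33 (36.4%) had a log2 range of at least 1, against 22.5% of the 12182 genes at that level. Below 5 CPM the count was 12 of 12, against 71.3% of 4692 genes. A log2 range of 2 was reached by 4 of the 33, against 4.23% of genes at that level, and by 8 of the 12, against 21.4%. The exact 95% Poisson intervals of the highest and lowest library did not overlap in 44 of the 45 receptors, GPR132 being the exception. These intervals cover counting error only. The same count was not made over all genes, and the highest and lowest libraries were picked from these same values. The count is therefore not a trait of these receptors.

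**Figure D1:**
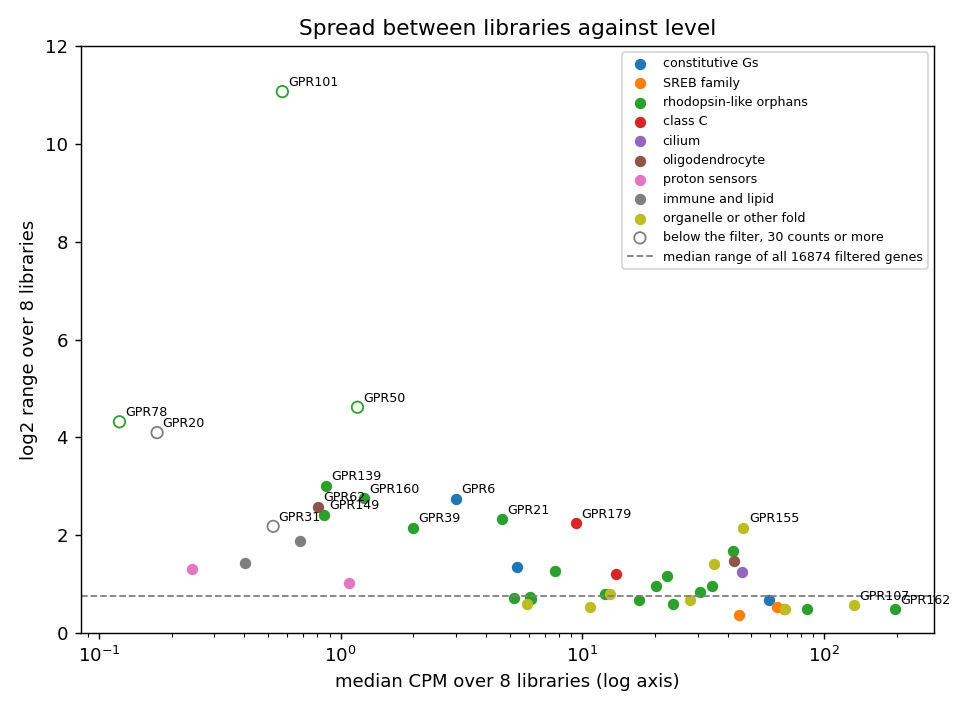
Median level over the 8 libraries (CPM, log axis) against the log2 range over the same libraries, 1 point per receptor described here, coloured by role. Filled points passed the filter, open points did not pass but reached 30 counts in a library, and the dashed line is the median range of all 16874 genes. GPR101 lies at a log2 range of 11.07, while GPR162 and GPR107 at the right lie at 0.50 and 0.57.

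The summed level of all 71 receptors moved little, from 1233 CPM in AMB4 to 1366 CPM in AMB3, and the AMB3 sum was 1260 CPM without GPR101. Individual receptors differed in which libraries were high and low. AMB8 and AMB10 were the 2 lowest libraries for 10 of the 45 receptors (22.2%, against 11.6% of all genes), among them GPR6, GPR21, GPR52, GPR61, GPR107, GPR137C, GPR149, GPR153 and GPR179. They were the 2 highest for 8 receptors (17.8%, against 11.9% of all genes): GPR1, GPR12, GPR37, GPR85, GPR108, GPR137B, GPR155 and GPR182. This pair of libraries was picked after the data were seen, so these shares describe the pair and are not a test. AMB8 and AMB10 also had the highest summed markers of the dentate gyrus and hippocampal fields, although PDZD2 and DSP of that list differed, as given above. The part of cell composition in these levels was not tested.

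**Figure D2:**
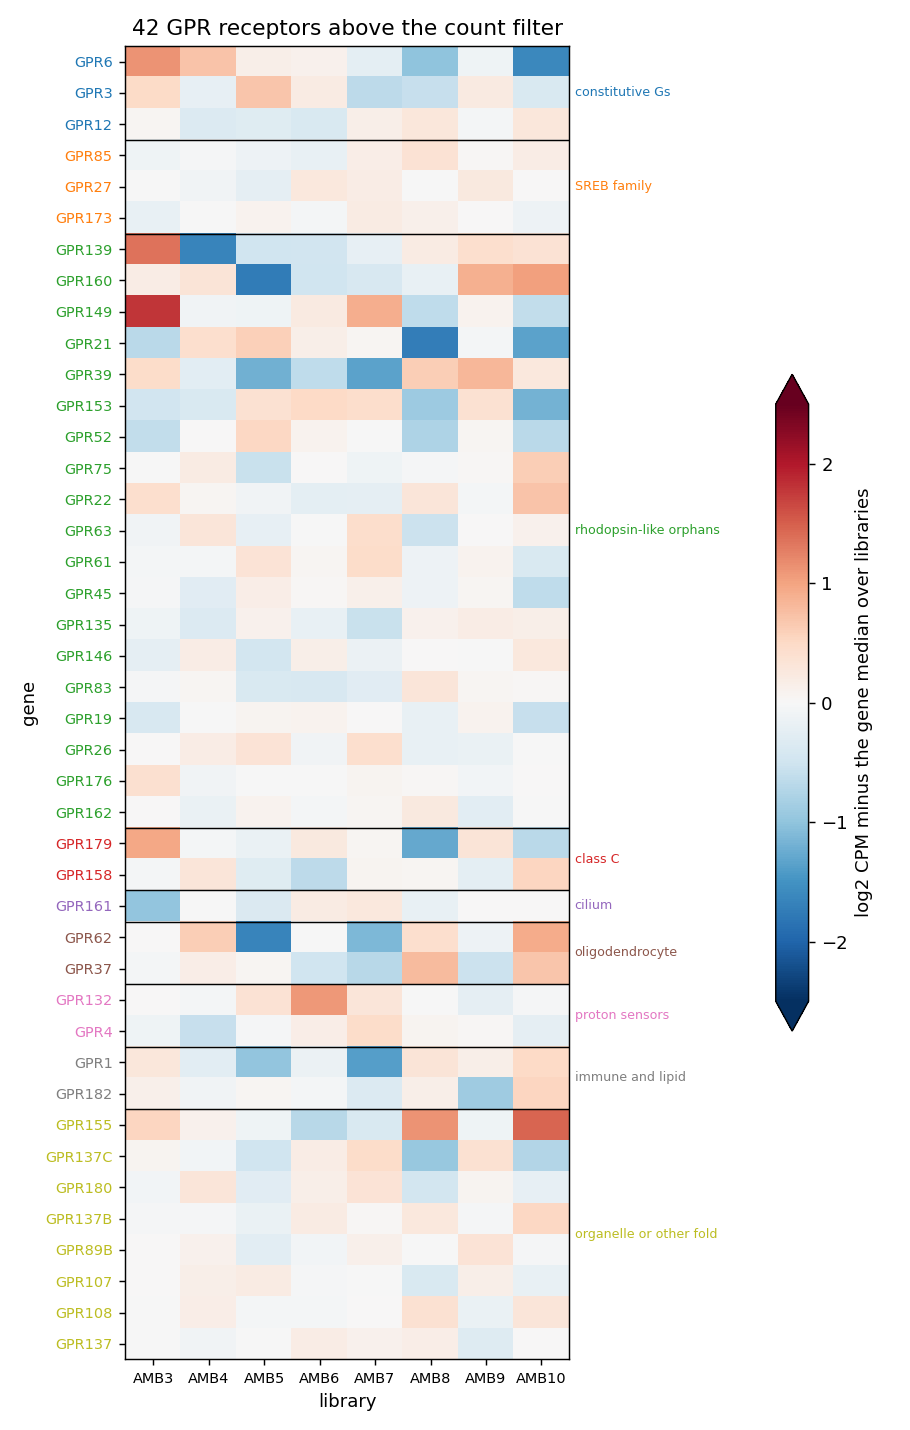
Log2 CPM of 42 of the receptors that passed the filter in each of the 8 libraries, minus the median of each gene over libraries, on a colour scale in log2 units, with genes grouped by role. GPR6 is highest in AMB3 and lowest in AMB10, GPR149 is highest in AMB3, and GPR155 is highest in AMB10 and AMB8, while the SREB rows are pale throughout.

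GPR3, GPR6 and GPR12 are close relatives that couple to Gs and raise cyclic AMP without an added ligand. They have been studied in neurons and in the meiotic arrest of oocytes. GPR6 stood at 6.58 CPM in AMB3, 4.93 in AMB4, 3.34 in AMB5, 3.21 in AMB6, 2.52 in AMB7, 1.47 in AMB8, 2.80 in AMB9 and 0.951 in AMB10. Its level was highest in AMB3 and AMB4 and lowest in AMB10 and AMB8, with a log2 range of 2.75. GPR3 stood at 7.42 CPM in AMB3, 4.58 in AMB4, 8.58 in AMB5, 6.11 in AMB6, 3.34 in AMB7, 3.54 in AMB8, 6.22 in AMB9 and 4.05 in AMB10, a log2 range of 1.35. It was highest in AMB5 and AMB3 and lowest in AMB7 and AMB8, so its order differed from that of GPR6. GPR12 varied less, from 45.6 to 72.7 CPM (log2 range 0.67), and its 2 highest libraries were AMB8 and AMB10, the lowest ones for GPR6.

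The SREB receptors (super-conserved receptors expressed in brain) GPR27, GPR85 and GPR173 are nearly invariant in sequence among vertebrates. All 3 passed the filter and none reached a log2 range of 1, too few receptors to set against the 36.1% of all genes. GPR27 stood at 67.7 CPM in AMB3, 64.7 in AMB4, 58.7 in AMB5, 82.6 in AMB6, 78.4 in AMB7, 67.9 in AMB8, 81.5 in AMB9 and 69.1 in AMB10, with the highest values in AMB6 and AMB9 and a log2 range of 0.49. GPR85 lay between 56.1 CPM (AMB6) and 81.7 CPM (AMB8), and GPR173 between 39.4 CPM (AMB3) and 51.3 CPM (AMB7), the narrowest log2 range (0.38) of the 45 receptors.

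**Figure D3:**
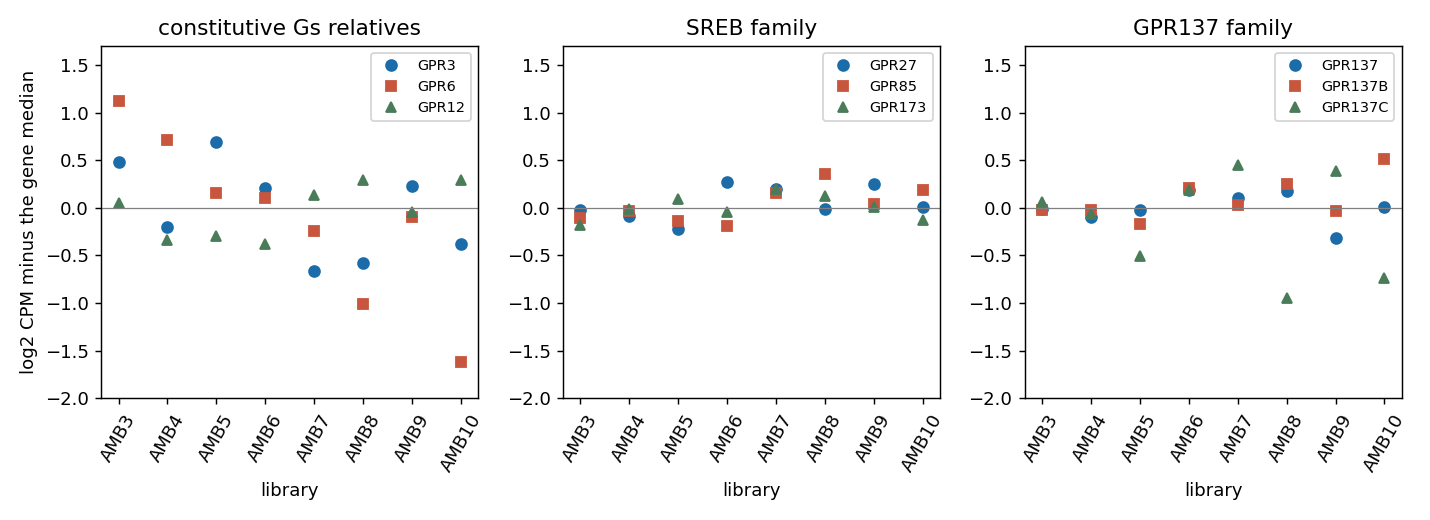
Log2 CPM minus the gene median in each of the 8 libraries for 3 sets of relatives: the constitutive Gs receptors, the SREB family and the GPR137 family. Each marker is 1 gene in 1 library. GPR6 lies between 1.13 above its median in AMB3 and 1.62 below it in AMB10, GPR12 stays near 0, and of the GPR137 family GPR137C lies lowest in AMB8 and AMB10.

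The largest of the groups used here, labelled rhodopsin-like orphans, held 26 receptors. It is not the whole rhodopsin-like class, since receptors of other groups here also belong to that class, and some of the 26 have a known activator. Of the 26, 20 passed the filter and 9 of those had a log2 range of at least 1. Among all genes that passed, 36.1% had such a range. GPR101, GPR50 and GPR78, described first, did not pass the filter and are not among those 9. GPR101 had the largest spread of all 71 receptors. It is an X-linked receptor coupled to Gs, known from the hypothalamus and pituitary, and extra copies of it cause a childhood form of gigantism. Its gene lies at X:17812348-17820289 in the deposited table. GPR101 stood, with estimated counts in parentheses, at 106 CPM (4301) in AMB3, 0.610 (39) in AMB4, 0.507 (22) in AMB5, 1.40 (76) in AMB6, 0.0140 (1) in AMB7, 0.538 (36) in AMB8, 0.151 (6) in AMB9 and 0.937 (67) in AMB10. AMB3 stood alone, with 75.6 times the CPM of AMB6, the next library (95% counting interval 60.2 to 96.1). Against the 1 count of AMB7 the ratio was 7567, with a counting interval of 1357 to 298934. The log2 range was 11.07 over all libraries and 4.90 without AMB3. By the ratio of the highest to the second library, GPR101 was the gene ranked 2 of the 16947 that had at least 50 counts in their highest library and more than 3 in the second.

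GPR50 is related to the melatonin receptors but does not bind melatonin. It lies at X:4126274-4132701 and stood at 0.888 CPM (36) in AMB3, 0.704 (45) in AMB4, 0.346 (15) in AMB5, 2.73 (148) in AMB6, 0.168 (12) in AMB7, 4.97 (332) in AMB8, 1.46 (58) in AMB9 and 3.26 (233) in AMB10, with counts in parentheses. AMB8, AMB10 and AMB6 were high, and AMB7 and AMB5 low. The ratio of AMB8 to AMB7 was 29.5 (counting interval 16.7 to 57.7), and the log2 range was 4.62. GPR78, a little-studied receptor close to GPR26, stood at 1.23 CPM (50) in AMB3, 0.0313 (2) in AMB4, 0.0922 (4) in AMB5, 0.185 (10) in AMB6, 0.0280 (2) in AMB7, 0.224 (15) in AMB8, 0.151 (6) in AMB9 and 0.0839 (6) in AMB10, again with counts in parentheses. Like GPR101 it was highest in AMB3, 5.5 times the level of AMB8 (counting interval 3.04 to 10.5), and the log2 range was 4.32 with AMB3 and 2.06 without it.

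GPR52, an orphan rich in the striatum and coupled to Gs, stood at 5.01 CPM in AMB3, 7.73 in AMB4, 11 in AMB5, 8.20 in AMB6, 7.65 in AMB7, 4.52 in AMB8, 7.91 in AMB9 and 4.80 in AMB10. It was highest in AMB5 and lowest in AMB8, AMB10 and AMB3, with a log2 range of 1.27 that was 0.86 without AMB5. GPR21, the closest relative of GPR52, stood at 2.91 CPM in AMB3, 6.23 in AMB4, 7.08 in AMB5, 5.13 in AMB6, 4.85 in AMB7, 1.38 in AMB8, 4.48 in AMB9 and 1.82 in AMB10, a log2 range of 2.33, with the same 3 libraries lowest. GPR21 lies inside RABGAP1 on the same strand (13:92422209-92424251) and GPR52 lies inside RABGAP1L on the same strand. The host genes spread less, with log2 ranges of 0.29 and 0.48, but how reads were assigned between host and receptor is not given in the sources used here.

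GPR139, a receptor that responds to tryptophan and phenylalanine and is rich in the habenula, stood at 2.27 CPM in AMB3, 0.250 in AMB4, 0.599 in AMB5, 0.609 in AMB6, 0.743 in AMB7, 1.0 in AMB8, 1.16 in AMB9 and 1.12 in AMB10. AMB3 was highest and AMB4 lowest, and the log2 range of 3.01 was 1.86 without AMB4. GPR149, an orphan of unknown role, stood at 3.03 CPM in AMB3, 0.798 in AMB4, 0.784 in AMB5, 0.997 in AMB6, 1.63 in AMB7, 0.538 in AMB8, 0.907 in AMB9 and 0.545 in AMB10. It too was highest in AMB3, and its log2 range of 2.42 was 1.53 without that library. The gene overlaps another on the same strand, which ranged from 3.55 to 5.01 CPM. Summed over 8 markers of thalamus and habenula, of which 5 passed the filter, AMB3 had the highest level at 107 CPM, against 60.9 to 92.1 CPM in the other libraries. NTNG1 alone gave 57.2 CPM of that sum, and PRKCD was also highest in AMB3 (11.5 CPM), whereas TCF7L2 (7.62 CPM in AMB3, 14.7 in AMB10) and RORA (25.5 CPM in AMB3, 46.4 in AMB7) were not. POU4F1, which defines habenular neurons, had no count in any library, and the part of tissue from outside the hippocampus in the AMB3 levels was not tested. GPR160 stood at 1.41 CPM in AMB3, 1.56 in AMB4, 0.346 in AMB5, 0.868 in AMB6, 0.925 in AMB7, 1.09 in AMB8, 2.32 in AMB9 and 2.54 in AMB10. It was highest in AMB10 and AMB9, and its log2 range of 2.76 was 1.52 without AMB5, the lowest library. 

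GPR39, a receptor activated by zinc ions, stood at 2.71 CPM in AMB3, 1.63 in AMB4, 0.830 in AMB5, 1.26 in AMB6, 0.757 in AMB7, 3.04 in AMB8, 3.50 in AMB9 and 2.36 in AMB10. AMB9 and AMB8 were highest, AMB7 and AMB5 lowest, and the log2 range was 2.16. Its gene overlaps LYPD1 and NCKAP5 on the opposite strand, and both of these were highest in AMB8 and lowest in AMB7 (17.9 to 176 CPM and 29.2 to 110 CPM). The library kit keeps strand, but whether counting used it is not stated, so reads of the overlap cannot be told apart. GPR153, an orphan related to GPR162, stood at 29 CPM in AMB3, 31.2 in AMB4, 52.8 in AMB5, 57.1 in AMB6, 54.8 in AMB7, 21.7 in AMB8, 52.8 in AMB9 and 17.9 in AMB10. AMB5, AMB6, AMB7 and AMB9 lay within 52.8 to 57.1 CPM, and the other 4 libraries at 31.2 CPM or less, with AMB10 and AMB8 lowest (log2 range 1.67). GPR75, a Gq-coupled receptor whose loss in people goes with low body weight, stood at 22.4 CPM in AMB3, 25.7 in AMB4, 15.1 in AMB5, 22.5 in AMB6, 20.7 in AMB7, 22.0 in AMB8, 22.8 in AMB9 and 34.3 in AMB10. Its log2 range of 1.18 rested on the highest and lowest libraries, since it was 0.77 without AMB10 and 0.73 without AMB5, and the gene overlaps another on the same strand.

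The rhodopsin-like orphans that passed and are described next varied less than 2-fold between their highest and lowest libraries on the log2 CPM scale. GPR176, a receptor of the circadian clock that couples to Gz, stood at 113 CPM in AMB3, 79.7 in AMB4, 84.5 in AMB5, 84.4 in AMB6, 89.4 in AMB7, 86.6 in AMB8, 81.0 in AMB9 and 85.7 in AMB10. The 7 libraries other than AMB3 lay within 79.7 to 89.4 CPM, and the log2 range of 0.50 was 0.16 without AMB3. GPR162 stood at 199 CPM in AMB3, 177 in AMB4, 210 in AMB5, 191 in AMB6, 203 in AMB7, 232 in AMB8, 165 in AMB9 and 195 in AMB10, also a log2 range of 0.50, with AMB8 highest and AMB9 lowest. GPR22 ranged from 28.8 to 56.5 CPM and GPR63 from 13.9 to 27.2 CPM, both with a log2 range of 0.97. GPR61, which is constitutively active, ranged from 23.5 to 42.1 CPM, GPR26 from 21.0 to 32.0 CPM and GPR45, the closest relative of GPR63, from 8.0 to 14 CPM. GPR19 ranged from 11.5 to 18.3 CPM, GPR83 from 4.65 to 7.6 CPM, GPR146 from 3.78 to 6.29 CPM and GPR135, which lies inside L3HYPDH on the same strand, from 4.09 to 6.88 CPM. GPR151, a marker of the habenula, had 0 to 4 counts and GPR152 0 to 2, neither enough to compare libraries.

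**Figure D4:**
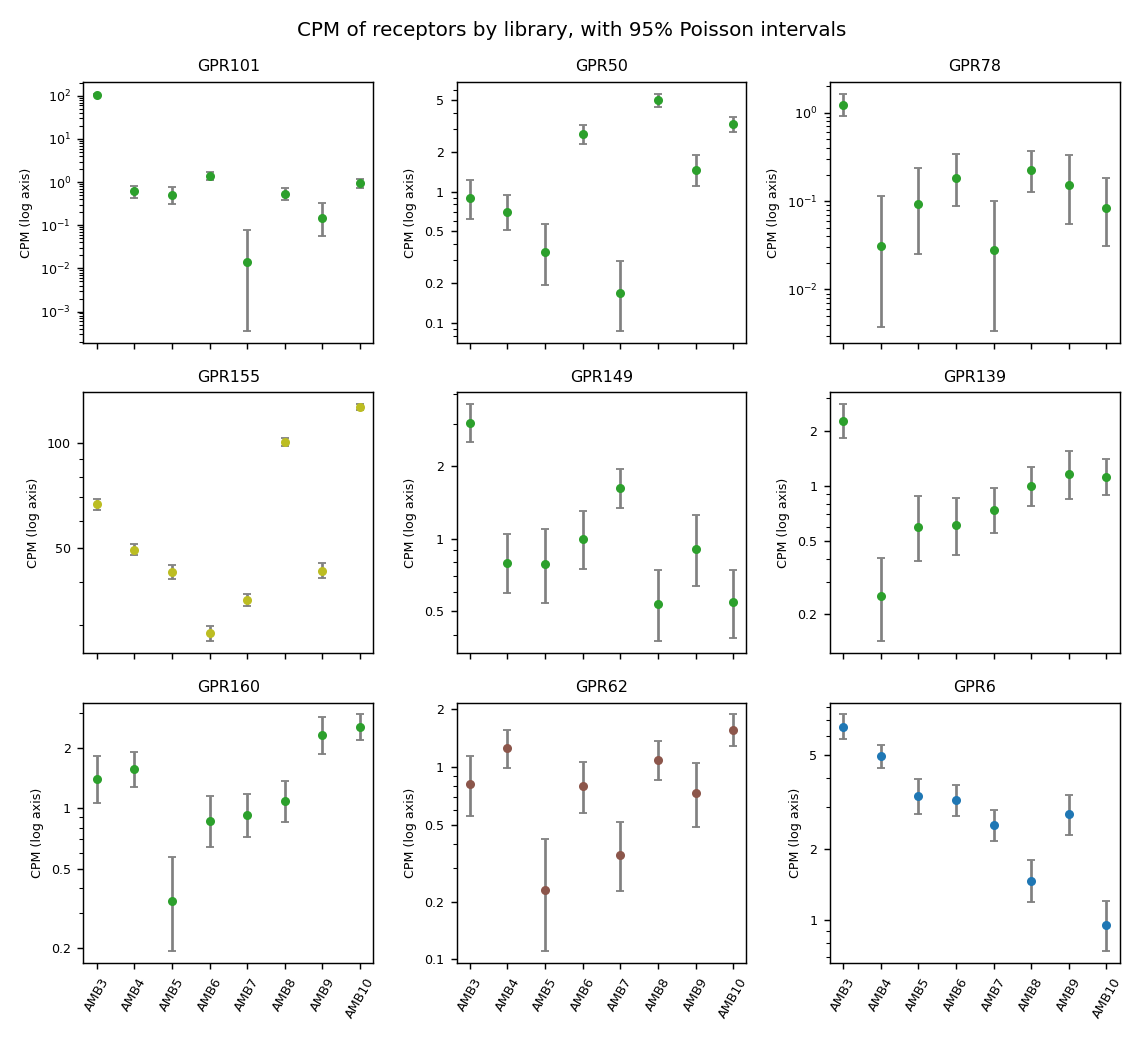
CPM (log axes, 1 scale per panel) of 9 receptors in each of the 8 libraries. Points are the values and bars the exact 95% Poisson intervals, which cover counting error only. GPR101 and GPR78 peak in AMB3, GPR50 in AMB8, GPR6, GPR139 and GPR149 in AMB3, and GPR155, GPR160 and GPR62 in AMB10.

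Class C receptors carry a large domain outside the cell, and GPR158 and GPR179 belong to that class. GPR179, which anchors signalling proteins in retinal bipolar cells, stood at 18.4 CPM in AMB3, 9.01 in AMB4, 8.35 in AMB5, 11.1 in AMB6, 9.77 in AMB7, 3.84 in AMB8, 11.7 in AMB9 and 5.84 in AMB10. AMB3 was highest and AMB8 and AMB10 lowest, with a log2 range of 2.25. GPR158, a glycine-binding receptor of neurons that holds RGS7 at the membrane, stood at 13.4 CPM in AMB3, 17.1 in AMB4, 11.1 in AMB5, 8.70 in AMB6, 14.4 in AMB7, 14.2 in AMB8, 11.6 in AMB9 and 20.1 in AMB10. AMB10 was highest and AMB6 lowest, and the log2 range of 1.21 was 0.86 without AMB6 and 0.96 without AMB10.

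GPR161 sits in the primary cilium and restrains Hedgehog signalling through Gs and cyclic AMP. It stood at 23.1 CPM in AMB3, 45.6 in AMB4, 35.7 in AMB5, 52.9 in AMB6, 54.8 in AMB7, 40.4 in AMB8, 46.3 in AMB9 and 46.2 in AMB10. AMB3 was low and the other libraries lay at 35.7 CPM or more, so that the log2 range of 1.25 was 0.62 without AMB3. GPR157, a receptor of the cilium of radial glia, had 6 to 29 counts and did not pass the filter.

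GPR37 and GPR62 are receptors of the oligodendrocyte lineage, and GPR37 holds back the maturation of these cells. GPR37 stood at 40.7 CPM in AMB3, 47.5 in AMB4, 44.0 in AMB5, 29.9 in AMB6, 26.2 in AMB7, 72.8 in AMB8, 29 in AMB9 and 68.8 in AMB10. AMB8 and AMB10 were high and AMB7, AMB9 and AMB6 low, a log2 range of 1.47. GPR62 stood, with counts in parentheses, at 0.814 CPM (33) in AMB3, 1.25 (80) in AMB4, 0.231 (10) in AMB5, 0.794 (43) in AMB6, 0.350 (25) in AMB7, 1.09 (73) in AMB8, 0.731 (29) in AMB9 and 1.57 (112) in AMB10. AMB10 and AMB4 were high and AMB5 and AMB7 low, a log2 range of 2.59. The summed level of 10 myelin genes ran from 777 CPM in AMB5 to 5008 CPM in AMB10, with AMB4 second at 4122 CPM.

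GPR4, GPR65 and GPR132 have been described as sensors of protons, although GPR132 also responds to fatty acid derivatives. GPR4, known from endothelium, stood at 1.01 CPM in AMB3, 0.720 in AMB4, 1.06 in AMB5, 1.22 in AMB6, 1.51 in AMB7, 1.14 in AMB8, 1.11 in AMB9 and 0.923 in AMB10 on 41 to 108 counts, and its log2 range of 1.04 was 0.69 without AMB4. GPR132 stood at 0.247 CPM in AMB3, 0.235 in AMB4, 0.323 in AMB5, 0.554 in AMB6, 0.308 in AMB7, 0.239 in AMB8, 0.202 in AMB9 and 0.238 in AMB10, on 8 to 30 counts. AMB6 was highest, the intervals of the highest and lowest library overlapped, and the log2 range of 1.31 was 0.59 without AMB6. GPR65, found on immune cells, had 0 to 4 counts.

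The 19 receptors known mainly from immune cells, vessels and lipid signalling were near the limit of detection. GPR1, a receptor for chemerin, and GPR182, an endothelial receptor that takes up chemokines, were the only 2 of them to pass the filter. GPR1 stood at 0.838 CPM in AMB3, 0.563 in AMB4, 0.323 in AMB5, 0.609 in AMB6, 0.238 in AMB7, 0.852 in AMB8, 0.756 in AMB9 and 0.979 in AMB10, highest in AMB10 and lowest in AMB7 (log2 range 1.89). GPR182 stood at 0.444 CPM in AMB3, 0.376 in AMB4, 0.415 in AMB5, 0.388 in AMB6, 0.308 in AMB7, 0.449 in AMB8, 0.202 in AMB9 and 0.601 in AMB10, and its log2 range of 1.43 was 0.89 without AMB9.

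GPR20, a receptor coupled to Gi, did not pass the filter and stood, with counts in parentheses, at 0.197 CPM (8) in AMB3, 1.20 (77) in AMB4, 0.0461 (2) in AMB5, 0.0369 (2) in AMB6, 0.476 (34) in AMB7, 0.150 (10) in AMB8, 0.151 (6) in AMB9 and 0.238 (17) in AMB10. It was highest in AMB4, 2.53 times AMB7 (counting interval 1.67 to 3.91). Of 8 markers of pericytes and smooth muscle, the contractile genes ACTA2, MYH11 and TAGLN were also highest in AMB4 (128, 59.1 and 80.7 CPM), which put the summed level there at 452 CPM, against 166 to 295 CPM elsewhere. The pericyte genes PDGFRB (30.6 CPM in AMB4, 42.6 in AMB10) and RGS5 (107 CPM in AMB4, 121 in AMB10) were not highest in AMB4. The part of either cell type in the level of GPR20 was not tested. GPR31, a receptor for an oxidised arachidonic acid, stood at 0.296 CPM (12) in AMB3, 0.501 (32) in AMB4, 0.507 (22) in AMB5, 0.554 (30) in AMB6, 0.813 (58) in AMB7, 0.598 (40) in AMB8, 0.151 (6) in AMB9 and 0.545 (39) in AMB10, with counts in parentheses. AMB7 was highest, but its ratio to AMB8 was 1.36 with a counting interval of 0.893 to 2.09. The log2 range of 2.18 was 1.36 without AMB9, the lowest library.

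The remaining receptors of this group reached at most 24 counts in any library. GPR183, the oxysterol receptor of immune cells, had 2 to 24 counts, GPR35 had 2 to 18 and GPR32, a resolvin receptor, 0 to 12. GPR25 had 4 to 12 counts, GPR55, a receptor for lysophosphatidylinositol, 2 to 9, and GPR82 0 to 8. GPR18 had 9 counts in AMB4 and 0 in the other libraries. GPR15, a homing receptor of T cells, had 4 counts each in AMB8 and AMB10 and 0 elsewhere. GPR119, a lipid receptor of the gut and pancreas, and GPR171 had 0 to 4 counts, and GPR84, a receptor for medium-chain fatty acids, and GPR174, a receptor for lysophosphatidylserine, 0 to 2. For GPR33 and GPR141, a count of 0 was bounded by 3 counts, or 0.0756 CPM in AMB9, the shallowest library. The exact 95% Poisson interval reached further there, to 0.0929 CPM. Microglial markers were present in every library, with a sum of 112 to 217 CPM.

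The last group holds 9 proteins with a GPR symbol that act in organelles or have another fold, of which 8 passed the filter and 2 reached a log2 range of 1. Over all genes that passed, 36.1% reached it. GPR155, the lysosomal cholesterol sensor LYCHOS of the mTORC1 pathway, lies at 10:58116224-58165638. It stood at 66.8 CPM in AMB3, 49.6 in AMB4, 42.6 in AMB5, 28.5 in AMB6, 35.5 in AMB7, 101 in AMB8, 43.1 in AMB9 and 127 in AMB10. AMB10 and AMB8 were high, AMB3 next and AMB6 lowest, and the log2 range was 2.15. The GPR137 proteins are also lysosomal. GPR137C stood at 36.4 CPM in AMB3, 33.4 in AMB4, 24.6 in AMB5, 39.6 in AMB6, 47.8 in AMB7, 18.0 in AMB8, 45.6 in AMB9 and 20.9 in AMB10, lowest in AMB8 and AMB10, a log2 range of 1.41. Its gene overlaps ERO1A (47.2 to 59.5 CPM) on the opposite strand. GPR137B lay between 24.8 CPM (AMB5) and 39.8 CPM (AMB10), and AMB8 and AMB10 were its 2 highest libraries, the opposite of GPR137C. GPR137 stood at 68.8 CPM in AMB3, 65.0 in AMB4, 68.4 in AMB5, 78.7 in AMB6, 74.6 in AMB7, 78.1 in AMB8, 55.5 in AMB9 and 69.7 in AMB10, and its log2 range of 0.51 was 0.28 without AMB9.

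GPR107, a protein of the Golgi and endosomes, stood at 135 CPM in AMB3, 148 in AMB4, 153 in AMB5, 131 in AMB6, 131 in AMB7, 103 in AMB8, 148 in AMB9 and 117 in AMB10. AMB8 was lowest, and the log2 range of 0.57 was 0.38 without it. Its relative GPR108, also of the Golgi, lay between 9.52 and 13.9 CPM. GPR89B, a channel that sets Golgi pH, lay between 4.89 and 7.46 CPM and GPR180 between 9.42 and 16.5 CPM. GPR143, the receptor of melanosomes mutated in ocular albinism, had 0 to 10 counts.

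The machinery through which these receptors signal was read from lists of its genes. All 11 G alpha genes passed the filter and 1 reached a log2 range of 1, GNA13 (27.6 to 60.9 CPM), against the 36.1% of all genes given above. GNAO1, the alpha subunit of Go, ranged from 656 to 867 CPM and GNAQ, that of Gq, from 355 to 521 CPM. Of 4 G beta genes, 2 reached it. GNB1 ranged from 830 to 1148 CPM, GNB2 from 199 to 266 CPM and GNB3, the widest, from 3.02 to 10.5 CPM. None of 7 receptor kinase and arrestin genes reached a log2 range of 1, and their median was 0.46. ARRB1 ranged from 351 to 437 CPM and GRK3 from 180 to 341 CPM.

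Adenylyl cyclases and RGS proteins, which speed the return of G alpha to its inactive state, are set against the same share of all genes. Of 9 adenylyl cyclase genes, 5 reached a log2 range of 1 (median 1.0, against 36.1% and a median of 0.77 over all genes). ADCY1, a calcium-stimulated cyclase of neurons, lay between 306 CPM in AMB8 and 1285 CPM in AMB7, and ADCY5 between 106 and 134 CPM. Of 15 RGS genes, 7 (46.7%) reached a log2 range of 1 and 3 a range of 2 (median 0.99), a share near that of all genes for the lower limit. RGS14, a marker of hippocampal field CA2, lay between 4.99 CPM in AMB7 and 167 CPM in AMB10, a log2 range of 5.06. RGS4 lay between 15.5 CPM in AMB8 and 263 CPM in AMB5, a log2 range of 4.08, while RGS7 lay between 89.8 and 109 CPM. Of 10 partner genes that passed the filter, 1 reached a log2 range of 1, HSD3B7 (4.20 to 8.44 CPM), an enzyme that removes the oxysterol ligand of GPR183. PSAP, whose product prosaposin has been reported as a ligand of GPR37, ranged from 818 to 1121 CPM and GNAZ, the partner of GPR176, from 230 to 356 CPM. CH25H, the enzyme that makes the precursor of that oxysterol, had 1 to 30 counts and did not pass.

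For receptors known from 1 cell type, log2 CPM was set against the median of that type's markers on the centred log2 scale over the 8 libraries. Of 14 such pairs, 11 could be computed, since GPR183, GPR65 and GPR84 did not pass the filter. Two-sided p-values come from exact permutation of all 40320 pairings, with Benjamini-Hochberg adjustment over the 11 pairs. The libraries were taken as independent, which the labels do not state. The receptors, lists and pairs were chosen with earlier results of these data known, and the p-values, adjusted or not, do not account for that choice. GPR62 ran with the myelin genes (Pearson r = 0.79, exact p = 0.018, adjusted 0.067, Spearman rho = 0.83, exact p = 0.015, adjusted 0.042). GPR22 ran against the median score of the excitatory neuron markers (r = −0.82, exact p = 0.013, adjusted 0.067, rho = −0.88, exact p = 0.0072, adjusted 0.042). The members of that list differed among themselves: in AMB8 and AMB10, where GPR22 was high, CAMK2A (2360 and 2258 CPM) and NEUROD2 (134 and 122 CPM) were at their highest, while TBR1 (16.2 and 16.0 CPM) was at its lowest. The summed level of the list was highest in AMB8, so the relation belongs to the median score only. GPR22 also lies inside COG5 on the opposite strand, and COG5 ranged from 24.8 CPM in AMB7 to 35.5 CPM in AMB10. Whether counting used strand is not stated, so reads of that overlap cannot be told apart. GPR4 ran against the endothelial markers (r = −0.84, exact p = 0.0044, adjusted 0.049, rho = −0.83, exact p = 0.015, adjusted 0.042), on the low counts given above.

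Leaving out the 2 libraries farthest from the median of each score, r was 0.61 for GPR62 (exact p = 0.20), −0.54 for GPR22 (exact p = 0.28) and −0.63 for GPR4 (exact p = 0.18). The libraries left out were AMB10 and AMB4, AMB10 and AMB3, and AMB4 and AMB7, in that order. Each r kept its sign and was smaller in size, and none passed over the remaining 6 libraries, which span a narrower range of the score. A further 7 pairs did not pass the adjusted threshold by r or rho. For GPR37 and the myelin genes r was 0.56 (exact p = 0.15, adjusted 0.25, rho = 0.52, exact p = 0.20, adjusted 0.31) and 0.28 without AMB10 and AMB4.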

How the data were processed

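RNA was extracted with an RNeasy kit and 25 ng made into strand-specific NEBNext libraries, per the labels' protocols. The authors deposited 1 table of 37053 RefSeq genes holding, for each library, a raw and a normalized column. Per the file headers the raw columns are not normalized, and their fractional values are estimated counts. The authors' normalized columns are log2 values relative to a baseline, which the file headers do not define, and they served only as an alternative. In the values themselves that baseline is the median of AMB3, AMB8 and AMB10, and the labels do not say why. The submitters' processing notes name DESeq but no version. Which aligner, counter and genome build were used is not given in the sources read here. Gene coordinates are those of the deposited table, and all 71 receptors matched RefSeq genes of the assembly Panubis1.0 by identifier and symbol.

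Counts were rounded. Genes were kept by filterByExpr of edgeR 4.0.16 (R 4.3.3; minimum count 10, no groups), which left 16874. Library sizes carried TMM factors (trimmed mean of M-values), and log2 CPM used a prior count of 2, which narrows the range of low genes. Exact Poisson intervals are at 95%, and a count of 0 was bounded by 3 counts. Correlations were computed in Python 3.11.15 with numpy 2.4.6 and pandas 2.3.3, and figures with matplotlib 3.10.9. The range calculation was tested on simulated data.

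A few receptors count in the totals but are not reported here. Values per library are given for those that passed with a log2 range of at least 1, the 5 of highest median CPM and those that failed with at least 30 counts in a library. Of each pathway list, the text names the 1 of largest range and the 2 with the highest median CPM. CH25H was added after its values were seen. Receptors, lists and pairs were chosen with earlier results of these data known. Alternatives were DESeq2 1.42.0 size factors, total counts, a prior of 0.5, unrounded counts, the deposited log2 values, other filters and each library left out.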

Additional observations from a re-analysis of the deposited data

Results flagged for a closer look

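Among 8 libraries, 1 value was taken to stand apart when its gap to the nearest other, divided by the whole range on the log2 CPM scale, exceeded the 95% critical value of Dixon's test. Chance alone does so for about 1 gene in 20. It happened for 4 of the 51 receptors tested (7.84%), against 5.08% of all genes that passed the filter. These shares are not alike, since the 51 include 6 receptors that failed the filter but reached 30 counts in a library. That rule favours genes with 1 high library, and GPR101 and GPR78 entered by it. Of the flagged receptors, only GPR176 and GPR132 passed the filter. GPR101 was far higher in AMB3 than elsewhere, with a gap of 0.561 of its range. GPR78 was also high in AMB3 (0.529), as was GPR176 (0.671). GPR132 was high in AMB6 (0.547), on 30 counts.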

How the results depend on the processing

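The main counts of 24 and 12 receptors with a log2 range of at least 1 and 2, and the median of 1.18, hardly moved with the scaling, prior count, rounding or the deposited log2 values (24 and 12 to 13). With no filter 45 and 24 of 68 receptors reached them (54.2% and 20.1% of all genes). At a minimum count of 30 the counts were 18 and 9 of 39 (30.4% and 6.17% of all genes). With 1 library left out they were 22 to 25 and 9 to 13 of 45 to 47 receptors (32.2% to 34.9% and 7.45% to 8.60% of all genes). The median was then 0.98 to 1.19, against 0.71 to 0.75 over all genes. In 2 alternatives chosen after seeing the data, a median of at least 5 CPM gave 12, 4 and a median of 0.80 (22.5%, 4.23% and a median of 0.625 over all genes at that level). Leaving out AMB8 and AMB10 gave 18, 6 and 0.86 (26.5%, 5.46% and a median of 0.634 over all genes).

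Of the relations to cell type markers, r for GPR4 no longer passed with DESeq2 size factors (−0.825), unrounded counts (−0.836), the deposited values (−0.810) or without 2 libraries (−0.631). For GPR22 it passed with total counts (−0.851). For GPR158 and the excitatory markers r was −0.60 over 8 libraries (exact permutation p = 0.12, adjusted 0.25). Without AMB10 and AMB3 it was −0.831 (exact permutation p = 0.046, not adjusted). For GPR161 and the motile cilia markers r was 0.29 (exact permutation p = 0.41, adjusted 0.47). Without the same 2 libraries it turned to −0.587 (exact permutation p = 0.21, not adjusted). The causes were not tested. No paired analysis was possible because the labels give no groups. Depth limits the 20 receptors that never reached 30 counts.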
